A study of Homo sapiens with 4 samples.

Results

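Chromatin accessibility in HK1 cells was mapped by ATAC-seq (a transposase inserts sequencing adapters where DNA is accessible), and the regions described here were open by peak call in both untreated libraries and in neither library treated with interferon-γ (IFN-γ). HK1 is an established line of human nasopharyngeal carcinoma, a tumour of squamous epithelium. The 4 groups held 1 library each. They were wild-type cells without treatment (WT), wild-type cells with IFN-γ for 24 h (WT-IFN-γ), FLI1-knockout cells without treatment (sgFLI1) and FLI1-knockout cells with IFN-γ (sgFLI1-IFN-γ). Whether the knockout cells were 1 clone or a pool, and which guide was used, is not given in the sources used here. Peaks of the 4 lists that overlapped by at least 1 bp were merged, which gave 93211 regions on chromosomes 1 to 22 and X. Members were the 1214 merged regions chosen by their peak calls: a peak in WT and in sgFLI1, and none in WT-IFN-γ or sgFLI1-IFN-γ. Their absence from the IFN-γ lists and their presence in the untreated lists are therefore given as a description. With 1 library per group no test between groups was possible, and intervals give the 95% counting error only (Wilson for shares, exact Poisson for tags).

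IFN-γ is a cytokine of T cells and natural killer cells. Its receptor signals through JAK kinases to transcription factors that enter the nucleus, and these induce further factors of the interferon regulatory factor (IRF) family, which bind DNA at the genes for antigen presentation and antiviral defence. AP-1 and TEAD factors bind many enhancers of epithelial cells. FLI1 is itself a member of the ETS family of transcription factors. CTCF, which anchors chromatin loops, occupies many sites that are open in most cell types.

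Reference sequence of GRCh38, plus strand, is shown for 7 members over 201 bases centred on the WT summit, the base with the most tags. They are members from among the strongest whose window held no annotated exon, and members that carry the motif types on which the comparison of sequences turns. The first pair hold an AP-1 site (TGACTCA or TGAGTCA) in an intron of the canonical transcript. The ATP1B1 summit lay 2514 bp from another transcription start site (TSS) of that gene, so this member counts as a promoter below. The third was chosen after its values were seen because an AP-1 site stood beside an ETS site (CCGGAAGT). The next pair hold a CTCF site, the second of them (30 tags in WT and 25 in sgFLI1) also chosen after its values were seen, and the last pair hold no match to any of the 15 motifs searched. Both windows of that last pair hold a near match to the CTCF string, which the exact search did not count. Capitals mark every motif match.
RHOF intron, chr12:121784598-121784798: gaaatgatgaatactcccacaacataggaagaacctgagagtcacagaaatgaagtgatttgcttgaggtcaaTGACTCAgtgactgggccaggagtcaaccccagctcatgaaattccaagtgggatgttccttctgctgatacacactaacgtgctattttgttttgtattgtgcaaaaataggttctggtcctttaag
ATP1B1 intron, chr1:169113637-169113837: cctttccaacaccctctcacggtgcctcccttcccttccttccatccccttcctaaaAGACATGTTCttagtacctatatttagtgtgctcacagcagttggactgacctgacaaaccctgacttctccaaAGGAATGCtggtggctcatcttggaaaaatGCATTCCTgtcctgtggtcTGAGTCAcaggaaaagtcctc
MAP3K13 intron, chr3:185423335-185423535: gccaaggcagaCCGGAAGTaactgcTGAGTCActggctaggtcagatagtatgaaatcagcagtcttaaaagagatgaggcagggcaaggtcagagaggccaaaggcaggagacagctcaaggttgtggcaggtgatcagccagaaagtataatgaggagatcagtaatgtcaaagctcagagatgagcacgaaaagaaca
intergenic region nearest to TRH, chr3:130003104-130003304: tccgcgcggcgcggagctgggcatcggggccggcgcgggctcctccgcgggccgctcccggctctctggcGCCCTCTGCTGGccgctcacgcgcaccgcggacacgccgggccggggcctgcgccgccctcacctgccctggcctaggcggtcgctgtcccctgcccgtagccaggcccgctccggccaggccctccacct
RGL1 gene body, chr1:183685241-183685441: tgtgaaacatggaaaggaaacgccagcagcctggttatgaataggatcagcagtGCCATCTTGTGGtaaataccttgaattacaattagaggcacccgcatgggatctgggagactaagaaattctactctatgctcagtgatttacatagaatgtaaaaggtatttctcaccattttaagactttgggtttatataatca
intergenic region nearest to ANKH, chr5:15003562-15003762: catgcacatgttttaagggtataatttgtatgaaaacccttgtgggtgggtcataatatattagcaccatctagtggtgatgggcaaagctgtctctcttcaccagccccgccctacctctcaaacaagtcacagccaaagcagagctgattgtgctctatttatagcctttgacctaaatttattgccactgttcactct
CFAP58 promoter, chr10:104353629-104353829: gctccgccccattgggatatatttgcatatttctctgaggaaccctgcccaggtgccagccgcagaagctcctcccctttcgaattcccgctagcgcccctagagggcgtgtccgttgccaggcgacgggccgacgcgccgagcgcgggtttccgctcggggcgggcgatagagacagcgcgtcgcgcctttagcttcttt
In the ATP1B1 window the capitals also mark 2 TEAD sites and 1 match to the p53 family motif.

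The number of members was first set beside the numbers of regions found in exactly 2 of the 4 lists for every other pair. The 1214 members were 2.6% (2.46 to 2.75%) of the 46650 regions with a peak in both untreated libraries. The reverse pattern, a peak in both IFN-γ libraries and in neither untreated one, held 1624 regions, or 3.42% (3.26 to 3.59%) of 47449. The crossed pairs share neither genotype nor treatment. WT with sgFLI1-IFN-γ alone held 907 regions (1.98% of 45776), and sgFLI1 with WT-IFN-γ alone held 1681 (3.5% of 48073). As deposited, the share of members lay between those of the crossed pairs, each of which joins a treated and an untreated library. The pairs that share a genotype were the most frequent, at 3912 regions (7.84%) for WT and 3322 (6.84%) for sgFLI1. When each list was cut to the same number of its most significant peaks, the members numbered 1342, the reverse pattern 1364, and the crossed pairs 1176 and 1067, so that the members then outnumbered both crossed pairs. With −log10 q of at least 5 in every list, a setting chosen after seeing the data, they numbered 837, 967, 531 and 1107, with the members again between the crossed pairs. Since the order turned on the list sizes, the members are named here by their listing in the untreated libraries only, and not as regions closed by IFN-γ.

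**Figure D1:**
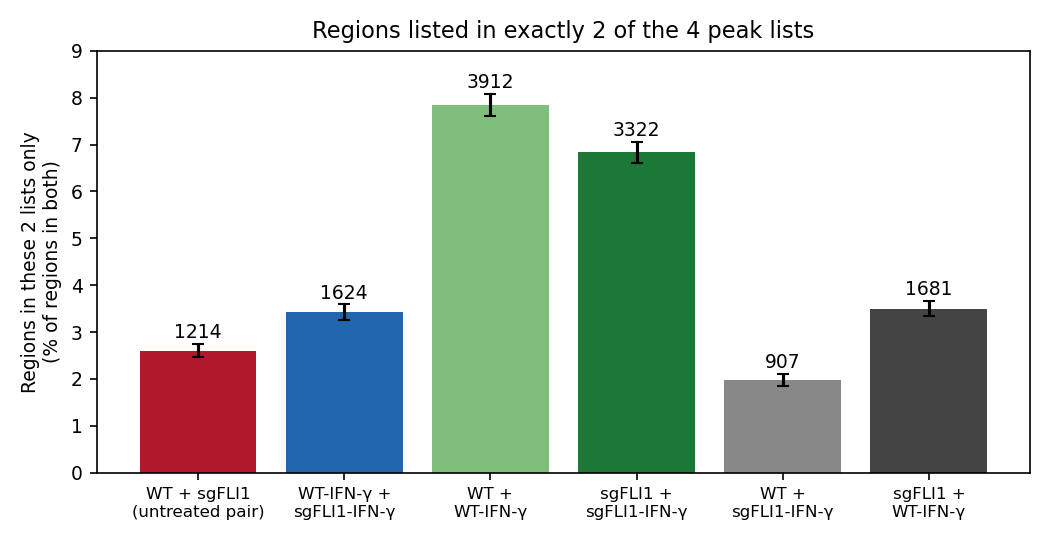
Regions found in exactly 2 of the 4 peak lists, as a percentage (y axis) of all merged regions with a peak in both lists of the pair (x axis). Bars start at 0, error bars are 95% Wilson intervals, and the number above each bar is the number of regions. The untreated pair, 1214 regions, lies between the crossed pairs of 907 and 1681 regions, an order that did not hold at equal list sizes (1342 against 1176 and 1067).

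Absence from one IFN-γ list went with absence from the other. Of the 46650 regions with both untreated peaks, 2937 had no WT-IFN-γ peak, and 41.3% of these (39.6 to 43.1%) also had no sgFLI1-IFN-γ peak. Among the 43713 regions that kept a WT-IFN-γ peak the share was 6.49% (6.26 to 6.73%). In the other order, 30.0% of the 4051 regions without a sgFLI1-IFN-γ peak lacked a WT-IFN-γ peak, against 4.05% of those with one. Within each genotype alone, 15.8% of the regions with a WT peak had no WT-IFN-γ peak, and 22.1% of those with a sgFLI1 peak had no sgFLI1-IFN-γ peak. In the crossed pairs absence also went together. Of regions with WT and sgFLI1-IFN-γ peaks, 907 lacked both other peaks, 1723 only WT-IFN-γ, 2270 only sgFLI1 and 40876 neither. Of those with sgFLI1 and WT-IFN-γ peaks, 1681 lacked both, 2679 only WT, 2837 only sgFLI1-IFN-γ and 40876 neither. Joint absence is thus not read as particular to the IFN-γ lists. Regions with few tags are missed more often in any list, and the strength of the peaks moved with this result, as the next values show.

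Most members were weak. The summit pileup, the number of tags over the summit, had a median of 14 in WT (lowest 8, highest 79) and 13 in sgFLI1 (lowest 7, highest 68). The middle 90% of members held 9 to 32 tags in WT and 8 to 27 in sgFLI1. The fold over the local background had a median of 4.06 in WT and 4.29 in sgFLI1, and the regions were 277 to 2084 bp wide with a median of 562 bp. In comparison, the median peak of a whole list held 31 tags in WT and 27 in sgFLI1. In bulk material, fewer cells with an open site and fewer cuts per cell cannot be told apart.

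The share of members fell as the smaller of the 2 untreated pileups rose. Of the 1851 regions with 10 or fewer tags, 415 were members (22.4%, 20.6 to 24.4%). At 11 to 15 tags it was 541 of 6426 (8.42%), and at 16 to 20 tags 152 of 5835 (2.61%). The decline went on through 0.957% at 21 to 30 tags and 0.303% at 31 to 50 tags. Above 50 tags, 1 of 15487 regions was a member, the promoter of RHOD. The crossed pairs fell in the same way, from 17.1% and 26.5% at 10 or fewer tags to 0.308% and 0.723% at 31 to 50 tags. The reverse pattern went from 25.2% to 0.531%, and above 50 tags it held 17 regions of 14454.

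**Figure D2:**
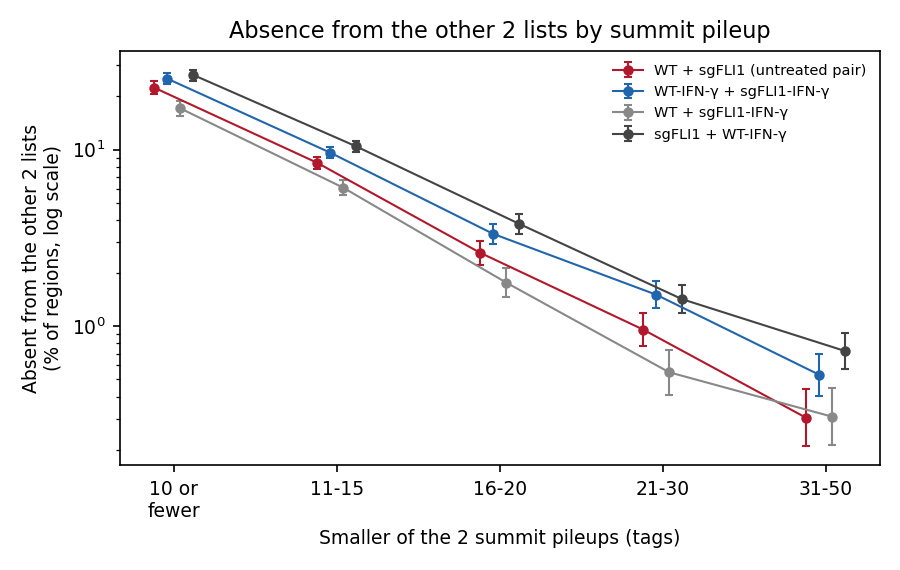
Share of regions absent from the other 2 lists (y axis, log scale) by the smaller of the 2 summit pileups in tags (x axis). Points are percentages with 95% Wilson intervals for the untreated pair, the IFN-γ pair and the crossed pairs. In each of the 4 lines the share falls from 17.1% or more at 10 or fewer tags to 0.723% or less at 31 to 50 tags, and the untreated pair runs between the crossed pairs up to 30 tags and level with the lower of them at 31 to 50 tags.

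Absence from a list is a limit on a pileup and not a value of 0, so the untreated pileups were compared with the lowest pileup each IFN-γ list would hold by its −log10 p limit. The study's methods also name a filter on reproducibility between replicates (IDR). Whether the lists come from before or after it is not stated, and after it a region past this limit could still be unlisted, so the limits hold for the peak caller alone. The untreated pileup and its background were scaled by the ratio of the library backgrounds, which was 2.20 tags in both wild-type libraries, 1.80 in the untreated knockout and 1.75 in the treated one. With the signal unchanged, 1146 members (94.4%, 93.0 to 95.6%) would have reached that limit in both IFN-γ libraries. For this count each untreated pileup had to reach the limit of each IFN-γ library, also across genotypes. Computed likewise, the share was 97.8% in the reverse pattern and 97.6% and 93.5% in the crossed pairs. It was 96.7% in the pair of WT lists and 100% in the pair of sgFLI1 lists. Members had already passed much the same limit in the untreated lists, so a high share follows from the rule and does not show a loss of signal. Within a genotype, 1181 members reached the limit in WT-IFN-γ and 1192 in sgFLI1-IFN-γ. By the same comparison, the median member stood at 1.58 times the limit in WT-IFN-γ and 1.53 times in sgFLI1-IFN-γ. At 2 or more times in both stood 102 members. Limits given below for single members are also those within a genotype. When the lower bound of the Poisson interval replaced the pileup, 177 members (14.6%, 12.7 to 16.7%) still reached both limits, again also across genotypes. This share was 19.3% in the reverse pattern, 15.7% and 14.1% in the crossed pairs, 29.9% in the pair of WT lists and 40.4% in the pair of sgFLI1 lists.

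**Figure D3:**
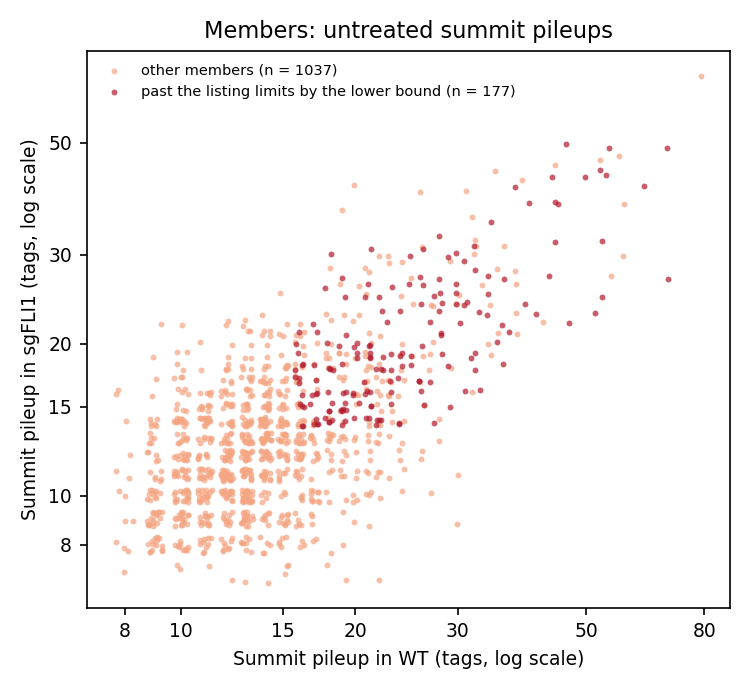
Summit pileup in sgFLI1 (y axis) against WT (x axis), in tags on log scales, for the 1214 members, with a small horizontal and vertical jitter because pileups are whole numbers. Dark points are the 177 members whose lower Poisson bound passed the listing limits of both IFN-γ libraries. The highest point, 79 and 68 tags, is not among them.

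The untreated libraries placed the summit of a member at nearby but often not identical bases. The median offset between the WT and sgFLI1 summits was 63 bp, and 520 members (42.8%, 40.1 to 45.6%) had summits within 50 bp. The crossed pairs had 45.0% and 40.6%. Among the 177 members past the limits by the lower bound, the median offset was 25 bp and the share within 50 bp was 72.3%. These 177 were picked by their tags, with a median of 22 in WT and 19 in sgFLI1, and offsets were not taken for other regions picked in the same way.

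The strongest member covered the start of the gene RHOD. The region chr11:67056768-67057219 held 79 tags in WT (interval 62.6 to 98.5) and 68 in sgFLI1 (52.8 to 86.2), and both summits lay 1 bp from the TSS in exon 1. Its local background was high, at 42.2 and 29.6 tags, so that its lower bounds did not pass the limits of 64 and 48 tags, and a peak of an IFN-γ list lay 829 bp away. The next member lay in intron 2 of RHOF, at chr12:121784583-121784983. It held 69 tags in WT and 49 in sgFLI1, over limits of 47 and 32, and passed both by the lower bound. SEPTIN9, which encodes a filament-forming cytoskeletal GTPase, had a member in intron 2 (chr17:77319056-77319576) with 55 and 49 tags. Its WT summit lay 84 bp from another TSS of SEPTIN9. These leading members carried many tags over a high background, and an IFN-γ peak lay within 3 kb of each.

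Other members among the 15 strongest lay over a lower local background. The intergenic region chr3:130003112-130003404, 28484 bp from the start of TRH, had the highest −log10 q, at least 30.0 in both lists. It held 44 tags in WT (32.0 to 59.1) over a background of 3.53, and 43 in sgFLI1 (31.1 to 57.9) over 3.12. Unchanged, it would have held 43.9 and 41.9 tags in the IFN-γ libraries, where 11 and 10 tags were enough for a listing. The region chr5:15003057-15003888, 131884 bp upstream of ANKH, held 53 tags in WT and 44 in sgFLI1, against limits of 15 and 13. Its nearest IFN-γ peak was 4515 bp away. In intron 1 of PLEKHM1, an adaptor for fusion of autophagosomes with lysosomes, the region chr17:45487784-45488147 held 50 and 43 tags against limits of 16 and 13. Its WT summit lay 55 bp from another TSS of PLEKHM1. In intron 2 of ATP1B1, the β subunit of the sodium pump, chr1:169113556-169114035 held 46 tags in WT and 50 in sgFLI1 against limits of 20 and 22. Its WT summit lay 2514 bp from another TSS of ATP1B1. Each of these 4 regions passed both limits by the lower bound, and the CTCF or AP-1 sites of 2 of them are among the sequences shown above.

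Of the 15 members with the highest smaller pileup per tag density, 10 passed both limits by the lower bound. The other members among the 15 that passed lay near SRSF10, a splicing regulator (54 and 43 tags), near BTF3, a subunit of the nascent-polypeptide complex (63 and 41), in UQCC2, an assembly factor of respiratory complex III (45 and 38), and near PLEKHM2, a link between lysosomes and kinesin (44 and 38). Those that did not pass, besides RHOD, lay in intron 1 of PRR12 (57 and 47), upstream of DUSP5, a phosphatase of ERK (53 and 46), in ARPC5, a subunit of the actin-nucleating Arp2/3 complex (58 and 38), and in MTHFD1L, an enzyme of mitochondrial folate metabolism (44 and 45). Introns are those of the canonical transcript. The members at RHOD, SEPTIN9, PRR12, DUSP5, PLEKHM1, BTF3, ATP1B1, ARPC5 and UQCC2 lay within 3 kb of a TSS and count as promoters below. The 15 were chosen by their pileups, so pileups far above the median member follow from the choice.

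At the threshold, the weakest members held the lowest number of tags the WT list holds. Tied at the lowest smaller pileup per tag density were 14 members, each with 8 tags in WT and with 7 to 16 in sgFLI1. Examples lay nearest to MLEC, UBAC2 and PPM1F, with 8, 12 and 11 tags in sgFLI1. Just outside the rule, the region nearest to TLE3 held 26 tags in WT and 18 in sgFLI1, and was kept out by a sgFLI1-IFN-γ peak of 16 tags at a −log10 q of 1.37. Regions nearest to SORL1 (9 and 13 tags) and IGFL4 (13 and 12) were kept out by sgFLI1-IFN-γ peaks of 7 tags. The values on the 2 sides of the threshold overlap.

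By position, 188 members (15.5%, 13.6 to 17.6%) were promoters, with the WT summit within 3 kb of the TSS of a protein-coding gene. A further 543 (44.7%) were intronic, 443 (36.5%) intergenic and 40 (3.30%) exonic, and the median distance to a TSS was 22490 bp. The reverse pattern had 14.8% promoters and the crossed pairs 16.2% and 17.1%. Regions of every list had 38.1%. A set of 10196 of them had untreated pileups in the members' middle 90%, and is called like pileup here. It was still stronger, with medians of 21 tags in WT and 18 in sgFLI1. Its promoter share was 14.96%, inside the interval of the members. By strength, the shares of members and of regions of every list were 11.1% and 12.8% at 10 or fewer tags. Both were 13.1% at 11 to 15 tags. At 16 to 20 tags the interval of members was 18.8 to 32.4%, above the 14.8 to 16.8% of regions of every list. The crossed pairs there had 18.1% for WT with sgFLI1-IFN-γ and 21.5% for sgFLI1 with WT-IFN-γ. The reverse pattern had 17.65%, and all of these intervals overlapped that of the members. At 21 to 30 tags members had 24.4% and regions of every list 19.8%, with overlapping intervals. The crossed pairs had 28.9% and 30.8% in the same order, and the reverse pattern 26.8%. A higher promoter share than in regions of every list is thus not read as particular to the members.

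The 6 strongest members within 1 kb of a canonical TSS were led by RHOD. EGR3, an immediate-early zinc-finger factor, had a member with its summit 87 bp upstream and 40 and 38 tags in WT and sgFLI1, with an IFN-γ peak 451 bp away. CFAP58, a protein of the sperm flagellum, had a member 104 bp upstream with 43 and 27 tags, against limits of 17 and 13. FGF21, a metabolic hormone, had 36 and 22 tags at 24 bp upstream. AGPAT3, an acyltransferase of phospholipid synthesis, had 30 and 22 tags at 857 bp upstream, and LRRC15, a leucine-rich repeat membrane protein, had 25 and 26 tags in exon 1 with an AP-1 site. All of these but RHOD passed the limits in both IFN-γ libraries by the lower bound.

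The members were scattered. Another member lay within 10 kb of 8 members, and a region of the reverse pattern within 10 kb of 33 (2.72%, 1.94 to 3.79%). A peak of an IFN-γ list lay within 500 bp of 56 members (4.61%) and within 10 kb of 659 (54.3%), with a median gap of 8559 bp. Counted over gene bodies with 10 kb upstream, 659 genes held 1 member, 34 held 2 and 1 gene held 3. The last was DLG2, a synaptic scaffold gene of 2173324 bp, whose 3 members were among its 12 regions with both untreated peaks and had 9 to 18 tags in WT and 8 to 13 in sgFLI1. By chromosome, the share of members among regions with both untreated peaks ran from 1.74% on chromosome 16 to 4.47% on chromosome 13 (3.49 to 5.71%), and the intervals of 17 of 23 chromosomes held the overall value.

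What the rule did not use is the sequence under the summits. An AP-1 site lay within 100 bp of the WT summit in 211 members (17.4%, 15.4 to 19.6%) and a CTCF site in 115 (9.47%, 7.95 to 11.3%). TEAD sites were found in 98 (8.07%), RUNX sites in 55 (4.53%) and IRF sites, 2 copies of GAAA set 2 bases apart, in 34 (2.80%, 2.01 to 3.89%). The ETS motif was found in 7 (0.577%, 0.280 to 1.19%), and 646 members (53.2%) held none of the 15 motifs. Over regions of every list the same shares were 18.9% for AP-1, 8.65% for CTCF, 5.87% for TEAD, 2.23% for IRF and 1.96% for ETS. These regions are stronger and include more promoters, and those of like pileup had 19.2% for AP-1, 14.15% for CTCF, 6.29% for TEAD and 0.314% for ETS (0.222 to 0.443%). A match is a string of letters and does not show that a factor bound there. Sites that differ from the string were not counted, so a region without a match may still hold a site.

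The clearest contrast was with the reverse pattern at IRF sites. There, 246 of 1624 regions (15.1%, 13.5 to 17.0%) held an IRF site, against 2.80% of members. Regions of every list with like pileup had 2.85%, and the crossed pairs had 2.43% for WT with sgFLI1-IFN-γ and 4.70% for sgFLI1 with WT-IFN-γ. At 11 to 15 tags the IRF share was 3.88% of 541 members (2.55 to 5.86%), 2.91% of 3883 regions in every list and 18.6% of 650 regions of the reverse pattern (15.8 to 21.8%). At 10 or fewer tags it was 1.93%, 4.82% and 13.9% in the same order. The intervals of the members and of the reverse pattern did not overlap at either strength.

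CTCF shares differed between groups of regions. CTCF sites were held by 6.51% of members at 10 or fewer tags (4.51 to 9.30%), 11.5% at 11 to 15 tags (9.04 to 14.4%) 11.2% at 16 to 20 tags (7.10 to 17.2%) and 8.97% of the 78 members at 21 to 30 tags (4.42 to 17.4%). Regions of every list had 8.58%, 11.2%, 14% and 14.2%, and the intervals overlapped at each strength. Over all strengths, the regions of every list with like pileup had 14.15% (13.5 to 14.8%) against 9.47% (7.95 to 11.3%) of members, and these intervals did not overlap. The like-pileup regions hold more tags than the members, as given above. In the reverse pattern the values by strength were 5.04%, 6.31%, 5.39% and 6.30%. The crossed pairs differed from each other, at 11.7% and 5.65% over all strengths, and the members lay between them. Among the 177 members past the limits by the lower bound, 32 held a CTCF site (18.1%, 13.1 to 24.4%). Examples besides those shown are an intronic region of TRG-AS1, chr7:38368135-38368543, with 32 and 31 tags, and chr17:45592428-45592953, with 33 and 23 tags. These 177 were picked by their untreated tags, and the CTCF share was not taken for other regions picked in the same way. WT with sgFLI1-IFN-γ had 18.1% at 16 to 20 tags and 17.8% at 21 to 30, and sgFLI1 with WT-IFN-γ had 6.14% and 5.13%. The 18.1% of the 177 is thus not read as particular to the members.

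AP-1 shares of members were close to those of regions of every list and of the reverse pattern at like strength, but not to those of both crossed pairs. At 10 or fewer tags 13.98% of members (10.97 to 17.6%) held a site, against 18.98% in every list (16.2 to 22.1%) and 18.4% in the reverse pattern (15.5 to 21.8%), and the intervals overlapped. At 11 to 15 tags the shares were 18.3%, 20.3% and 18.2%. Over all strengths the crossed pairs had 12.7% for WT with sgFLI1-IFN-γ and 23.97% for sgFLI1 with WT-IFN-γ, and the members lay between them again. The 7 members with an ETS motif had 10 to 33 tags in WT and 8 to 16 in sgFLI1, too few members for a comparison of shares. The MAP3K13 region shown above held 10 and 13 tags.

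**Figure D4:**
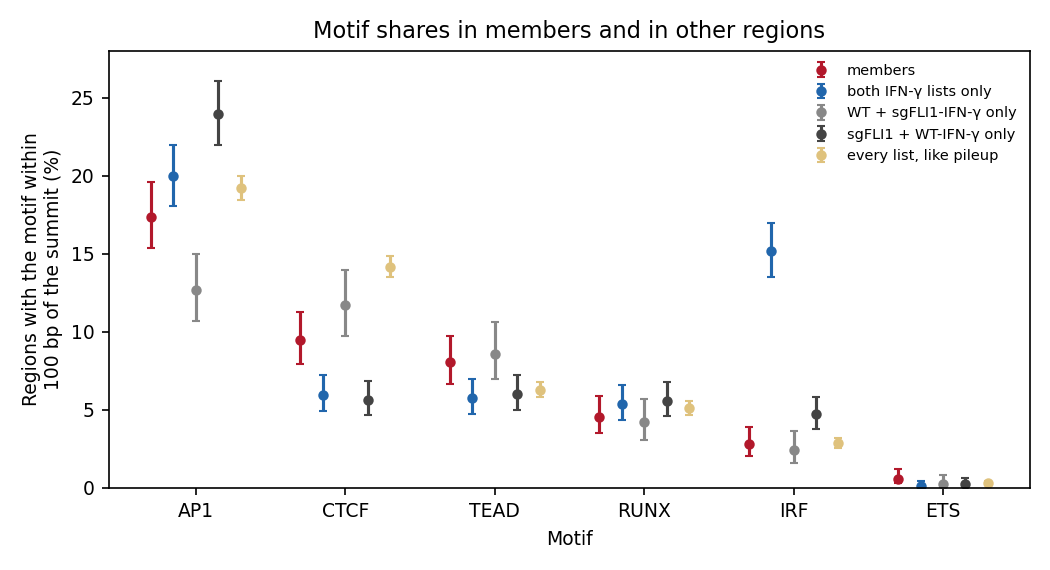
Share of regions with a motif within 100 bp of the summit (y axis, %) for 6 motifs (x axis), with 95% Wilson intervals, in members, the IFN-γ pair, the crossed pairs and regions of every list with like pileup. At IRF sites the IFN-γ pair stands at 15.1% and the members at 2.80%. At AP-1 and CTCF sites the members lie between the crossed pairs.

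Genes near the members were counted for 9 gene lists and for all protein-coding genes, with a member within 10 kb of a TSS. Of all 19962 genes, 454 (2.27%, 2.08 to 2.49%) had one, and 621 (3.111%) had a region of the reverse pattern. Of 107 IFN-γ-inducible genes, 1 had a member (0.935%, 0.165 to 5.11%), while 16 (14.95%) had a region of the reverse pattern. The gene was TRIM22, an antiviral factor, whose member in exon 4 held 15 tags in WT and 8 in sgFLI1. Of 52 squamous epithelial genes, 4 had a member (7.69%, 3.03 to 18.2%), and 2 (3.85%) had a region of the reverse pattern. Genes near the crossed pairs were not counted. With 4 genes in 1 of 9 lists, this is not read as a trait of the members. Of the squamous list, 45 genes (86.5%) had a region with both untreated peaks within 10 kb, against 78.2% of all genes.

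The 4 squamous genes encode proteins of junctions and of epithelial gene control. Near ELF3, an ETS factor of epithelium, the region chr1:201999413-202000201 in an exon of the antisense transcript ELF3-AS1, 8175 bp from a TSS of ELF3, held 28 tags in WT and 25 in sgFLI1, and had an AP-1 site and limits of 9 tags in both IFN-γ libraries. CLDN7, a tight-junction claudin, had a member 606 bp from a TSS with 24 and 18 tags. The member counted for LAMB3, a chain of the laminin of the basement membrane, held 23 and 16 tags. It lay 6711 bp from a TSS of that gene, in exon 11 of CAMK1G. This was the widest member, at 2084 bp. Its WT and sgFLI1 summits were 1234 bp apart, the largest offset of any member, so they mark different places. The member in intron 1 of PKP1, a desmosome plakophilin, held 14 and 12 tags and lay 6058 bp from a TSS. A TSS of another gene was nearer to the members counted for LAMB3 and ELF3, namely of CAMK1G and of RNPEP. The member near ELF3 passed the limits by the lower bound, and the other 3 did not.

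ELF3 was also the 1 gene of the 26 of the ETS family with a member. Of 51 cell cycle and growth genes, ERBB3, a receptor of the EGF receptor family, had a member 4945 bp from a TSS with 12 tags in WT and 8 in sgFLI1. No member lay within 10 kb of a TSS of the 49 EMT and matrix genes, the 31 genes of AP-1, TEAD and related factors, the 17 kynurenine and tryptophan genes, the 25 histone acetyltransferase and deacetylase genes or the 38 Wnt and Notch genes. The upper bounds of these shares were 7.27%, 11.03%, 18.4%, 13.3% and 9.18%, so that each interval holds the share of all genes.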

How the data were processed

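ATAC-seq peak lists of 4 groups with 1 library each were used. Per the labels and the study's methods, the authors used Trimmomatic 0.3 for trimming, Bowtie2 2.3.4.1 for alignment to GRCh38, SAMtools and Picard for filtering and MACS2 2.1.2 for peaks. Whether a list comes from 1 replicate or from pooled ones, whether it was taken before or after the IDR filter that the methods name, and whether tags were moved to the transposase cut, is not stated. For each peak the authors deposited a score and, for the summit, a ratio (fold enrichment against local background) with its p and q as −log10 values. The score was not used.

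From the fold and −log10 p, the whole number of tags at the summit and its background were recovered. They matched within 0.001 in −log10 p for 100% of the peaks. The library background was 2.20 tags in WT, 1.80 in sgFLI1, 2.20 in WT-IFN-γ and 1.75 in sgFLI1-IFN-γ, the lists held 59629, 63203, 67470 and 59923 peaks, and the lowest listed pileup was 7 or 8 tags. WT-IFN-γ was the deepest library. Intervals and limits cover counting error only.

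Peaks were merged and annotated with GENCODE for GRCh38, and no peak ended beyond a chromosome of that build. Motifs were searched as consensus strings within 100 bp of the summit, on either strand, and different motifs could overlap. NF-κB, CTCF and p53 family motifs allow several bases at some positions. The members and gene lists were chosen with earlier results of these data known. Named members were the 15 with the highest smaller pileup divided by tag density, the 6 highest within 1 kb of a canonical TSS, up to 3 genes of each list, 3 of those tied as the lowest and 3 just outside, and the genes with most members. Members singled out for a motif or a −log10 q were added after their values were seen. No test between groups was run, since each group held 1 library. Alternatives were stricter −log10 q, equal list sizes, other merging, depth, windows and chromosomes. The steps were tested on simulated data with known answers. The software was matplotlib 3.10.9, scipy 1.17.1, pandas 2.3.3 and numpy 2.4.6 under Python 3.11.15.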

Additional observations from a re-analysis of the deposited data

How the results depend on the processing

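No paired analysis was possible because each group held 1 library. Of the results recomputed under the alternatives, 39 values moved by less than their counting interval, or within 1.5 times for counts. With −log10 q of at least 3 in both untreated peaks, the members numbered 789, with AP-1 sites in 19.7%, CTCF sites in 11.8% and a median of 16 tags. With −log10 q of at least 5 in both, there were 368, with 368 past the unchanged-signal limits, with CTCF sites in 15.2% and a median of 19 tags. With WT and sgFLI1 summits within 100 bp, there were 777 members, 755 past the limits, with AP-1 sites in 20.1%, CTCF sites in 13% and a median of 15 tags. The promoter share was 8.48% at 1 kb and 20.4% at 5 kb. The AP-1 share was 10.8% within 50 bp and 21.8% within 200 bp, and the CTCF share was 7.83% within 50 bp. By the lower Poisson bound 177 members passed the limits. Passing the limits follows largely from a cut on the same tags. CTCF shares of other groups were not taken under these cuts. From 10 or fewer to 21 to 30 tags, they went from 8.58% to 14.2% in regions of every list. In WT with sgFLI1-IFN-γ they went from 6.79% to 17.8%, in the reverse pattern from 5.04% to 6.30%. In sgFLI1 with WT-IFN-γ they went from 4.50% to 5.13%. The cause of the shifts with −log10 q and summit distance was not tested. With few tags per member, 1 library per group and no value for unlisted regions, the lists limit what can be said of a single region.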
